A study of Mus musculus with 12 samples.

Results

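The genes described here are 9 transcription factor genes that are known as nuclear outputs of ERK signaling, together with the cyclin D1 gene. They are Etv1, Etv4 and Etv5 of the ETS family, Egr1, the AP-1 genes Fosl1, Fosl2, Jun and Junb, and Myc and Ccnd1. The 10 genes were taken by name from a list, out of 35214 genes quantified, and none was left out for its values. That list was chosen with earlier results of these data known, so counts over the 10 genes are descriptions. All 10 had enough reads to be tested among 12542 genes. They were measured in Ocy454, a mouse osteocyte-like cell line, by sequencing of polyadenylated RNA in 12 libraries, 3 in each of 4 groups. The cells, all of this 1 line, were expanded at 33 C and were moved to 37 C for 5 days to differentiate. BGJ398, an inhibitor of the FGF receptor kinases, was given at 200 nM, or its vehicle DMSO alone, as a pretreatment of 1 h. The cells then received FGF2 (fibroblast growth factor 2) at 2 ng/mL or medium without it for 48 h, until lysis on day 7. The groups are called DMSO, DMSO+FGF2, BGJ398 and BGJ398+FGF2.

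FGF receptors signal through the adaptor FRS2 and the Ras-ERK kinase cascade. Active ERK phosphorylates ETS family factors, and these with serum response factor switch on immediate-early genes such as Egr1 and the Fos and Jun families within minutes to hours. AP-1 is a dimer of a Jun protein with a Fos, Jun or related bZIP protein, and the PEA3 group of ETS factors (Etv1, Etv4 and Etv5) is widely read as an output of FGF signaling in embryos and tumors. In bone, AP-1 proteins shape osteoblast and osteoclast differentiation, and FGF2 and FGF23 act on cells of the osteoblast lineage. The samples were taken long after the first wave of such a response, so the values describe levels after 48 h.

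The libraries held 18951710 to 27716975 reads, of which 1.70% to 2.11% fell on mitochondrially encoded genes. Of 11 osteoblast and osteocyte markers, 9 had at least 10 reads, while the osteocyte genes Sost and Mepe were at 0 and Dmp1 had 26 reads over all libraries. The summed level of that list was 5643 to 6878 CPM (read counts scaled to library size with TMM factors) in DMSO+FGF2 and 9280 to 11330 CPM in the other 9 libraries. Most of that sum is Col1a1, at a mean of 9485 CPM in DMSO against 5912 CPM in DMSO+FGF2, and of 8 tested markers 6 fell and 1, Pdpn, rose with FGF2 in DMSO. Macrophage markers summed to 8.28 to 10.6 CPM in DMSO+FGF2 and to 4.25 to 5.54 CPM elsewhere, with Adgre1 at 0, Ptprc at 2 reads in all and Cd68 as the member that rose. Chondrocyte markers summed to 25.2 to 27.1 CPM in DMSO+FGF2 and 18.2 to 24.1 CPM elsewhere. In that list Sox9 rose with FGF2 in DMSO from a mean of 13.6 to 24.2 CPM, while Matn3 fell from 4.42 to 1.26 CPM. Adipocyte and endothelial markers stayed at or below 0.915 CPM in sum in every library, and muscle markers at 3.30 to 4.85 CPM with Myod1 and Myog at 0. The part of these shifts in the results below was not tested, and in bulk RNA fewer cells of a type and less RNA per cell cannot be told apart. Within groups, BGJ398 replicate 1, DMSO+FGF2 replicate 2 and BGJ398+FGF2 replicate 2 deviated together on an axis with 34.2% of the within-group variance, at −9.46 to −17.8 against −2.21 to 9.46 in the other 9, so counts are also given without them.

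After 48 h of FGF2 in DMSO the AP-1 genes Fosl1, Fosl2, Jun and Junb were higher, Egr1, Myc and Ccnd1 were lower, and the PEA3 genes did not pass the test. That is 7 of the 10 genes, 4 higher and 3 lower, where 13.4% of all tested genes passed (7.57% higher and 5.82% lower). FGF2 under BGJ398 moved none of the 10 past the test, where 0% of all genes passed. BGJ398 given without FGF2 lowered 1 of the 10, Etv5, where 0.327% of all genes passed (0.175% lower). BGJ398 given with FGF2 changed 9 of the 10, with 6 lower and 3 higher, where 22.2% of all genes passed (11.4% lower and 10.8% higher). The FGF2 change itself differed between DMSO and BGJ398 for 4 of the 10, Fosl1, Jun, Myc and Ccnd1, where 4.24% of all genes passed (1.99% with a higher and 2.25% with a lower value under BGJ398). Calls rest on adjusted p-values under 0.05 from edgeR's quasi-likelihood test with Benjamini-Hochberg adjustment over all tested genes, with n = 3 in each group, and errors of log2 fold changes are SE. Without the 3 libraries that deviated together the counts were 7, 0, 3, 8 and 7 of 10, in the order given. Nothing in the labels tells whether the triplicates were separate cultures, so the spread behind the p-values may be in part technical.

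**Figure D1:**
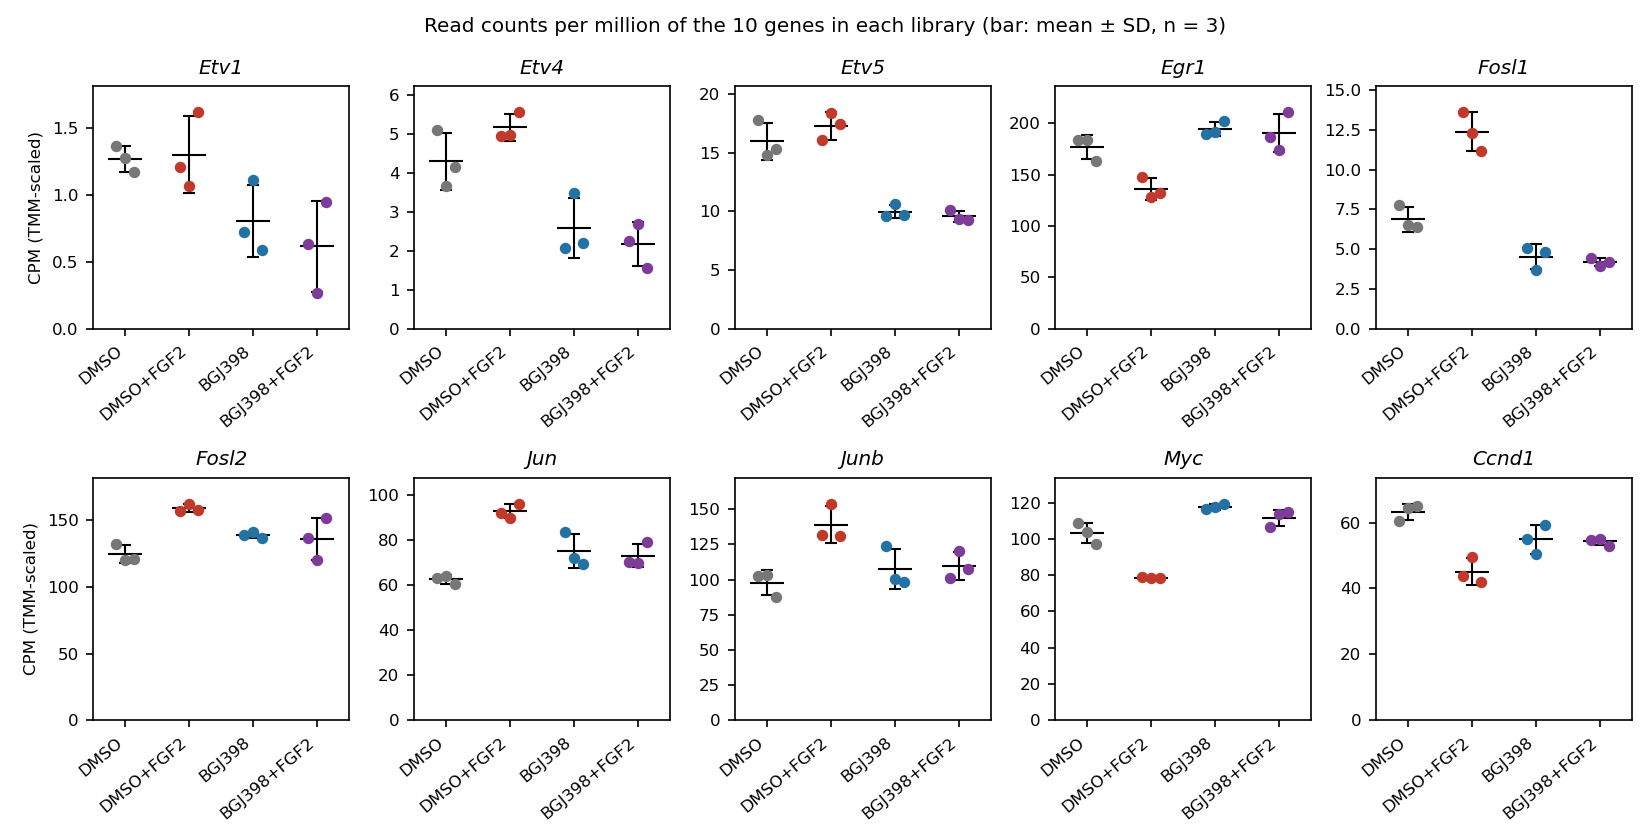
Level of each of the 10 genes in CPM (linear axis from 0, a separate scale for each gene) in the 12 libraries. Points are libraries in the order of their replicate number, and the bars are the mean ± SD of 3. For Fosl1 the DMSO+FGF2 libraries sit between 11.2 and 13.6 CPM, above all others, while for Myc they sit at 78.3 to 79.1 CPM, below all others. For Etv5 both BGJ398 groups lie below both DMSO groups.

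Per transcript length the genes spanned a wide range of levels. In DMSO the mean abundance in TPM (scaled for transcript length and library) was 87.5 ± 7.08 for Egr1 (SD, n = 3), 76.1 ± 4.06 for Myc and 74.8 ± 8.27 for Junb. A middle tier held Fosl2 at 33.6 ± 3.11 TPM, Ccnd1 at 30.9 ± 1.27 TPM and Jun at 27.4 ± 1.18 TPM. Below these lay Fosl1 at 8.47 ± 2.28 TPM, Etv5 at 7.35 ± 0.753 TPM, Etv4 at 4.01 ± 0.484 TPM and Etv1 at 0.574 ± 0.0516 TPM. In this order the neighbours Myc and Junb, Fosl2 and Ccnd1, and Fosl1 and Etv5 differed by less than the larger of their SDs. Etv1 had 270 reads over all 12 libraries and Etv4 had 959, against 46153 for Egr1, so these PEA3 genes were measured with the least precision.

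Of the PEA3 group, Etv5 (ENSMUSG00000013089, chromosome 16) had the most reads. It measured 17.8, 14.8 and 15.4 CPM in DMSO replicates 1 to 3 and 16.1, 18.4 and 17.4 CPM in DMSO+FGF2. The values were 9.63, 10.6 and 9.70 CPM with BGJ398 alone and 10.1, 9.36 and 9.28 CPM with BGJ398+FGF2. The 6 libraries with BGJ398 lay below the 6 without it, and on either side of that split the FGF2 libraries overlapped the others. FGF2 in DMSO gave a log2 fold change of 0.12 ± 0.09 (adjusted p = 0.465), with a 95% interval of −0.08 to 0.31. BGJ398 lowered Etv5 by 1.60-fold without FGF2 (log2 fold change −0.68 ± 0.10, adjusted p = 0.00951) and by 1.80-fold with FGF2 (−0.85 ± 0.10, adjusted p = 4.23e-05). It was the only one of the 10 genes that passed the test when BGJ398 was given without FGF2, a call that was lost without BGJ398 replicate 3 (adjusted p = 0.0693). Etv5 shares 30.3% of its 31-base sequences with Gm4798, which had 2 reads in all.

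Etv4 (ENSMUSG00000017724, chromosome 11), a factor of the same group, measured 5.11, 3.67 and 4.14 CPM in DMSO and 4.96, 4.99 and 5.57 CPM in DMSO+FGF2. The BGJ398 libraries measured 2.07, 3.48 and 2.20 CPM, and in BGJ398+FGF2 2.26, 2.69 and 1.56 CPM. Again every library with BGJ398 was lower than every library without it. With FGF2 present BGJ398 lowered Etv4 by 2.38-fold (log2 fold change −1.25 ± 0.23, adjusted p = 0.00193), whereas without FGF2 the value was −0.73 ± 0.23 (adjusted p = 0.312). FGF2 in DMSO gave 0.27 ± 0.22 (adjusted p = 0.478), so an effect of FGF2 on Etv4 was not detectable at this depth.

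Etv1 (ENSMUSG00000004151, chromosome 12), the least abundant of the 10 genes, measured 1.37, 1.27 and 1.17 CPM in DMSO and 1.21, 1.07 and 1.62 CPM in DMSO+FGF2. With BGJ398 alone the values were 0.722, 1.11 and 0.588 CPM, and with BGJ398+FGF2 they were 0.634, 0.269 and 0.947 CPM. All BGJ398+FGF2 libraries lay below all DMSO+FGF2 libraries, on 5 to 34 reads a library. The log2 fold change of that comparison was −1.04 ± 0.39, which missed the threshold (adjusted p = 0.0695). It passed in 3 of 21 other settings. These were without BGJ398+FGF2 replicate 3 (adjusted p = 0.0291), and on all 12 libraries with the DESeq2 test (adjusted p = 0.0471) and with limma (adjusted p = 0.0467). FGF2 in DMSO gave 0.03 ± 0.35 (adjusted p = 0.971).

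Egr1 (ENSMUSG00000038418, chromosome 18), a zinc finger factor and a textbook immediate-early gene, was lower after 48 h of FGF2. It measured 184, 184 and 163 CPM in DMSO and 148, 128 and 133 CPM in DMSO+FGF2. Levels in BGJ398 were 189, 191 and 202 CPM, and in BGJ398+FGF2 187, 174 and 211 CPM. The 3 DMSO+FGF2 libraries were the lowest of the 12. FGF2 in DMSO lowered it by 1.30-fold (log2 fold change −0.38 ± 0.08, adjusted p = 0.00541), and BGJ398 raised it by 1.40-fold when FGF2 was present (0.48 ± 0.08, adjusted p = 0.000723). Under BGJ398 the FGF2 change was −0.03 ± 0.08 (adjusted p = 1), but the difference between the FGF2 changes, 0.35 ± 0.11, missed the threshold (adjusted p = 0.101) and passed it without BGJ398+FGF2 replicate 2 (adjusted p = 0.024). Both transcripts of Egr1 had lower mean levels in DMSO+FGF2 than in DMSO. In CPM without TMM factors, these were 92.2 against 124 for the transcript of 3036 bases and 43.1 against 54.2 for that of 4484 bases.

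Among the AP-1 genes is Fosl1 (ENSMUSG00000024912, chromosome 19), which encodes the Fos-related protein FRA1. On summed counts it had the largest fold changes of the 10 genes with FGF2 in DMSO and with BGJ398 given with FGF2. It measured 7.79, 6.50 and 6.37 CPM in DMSO and 13.6, 12.3 and 11.2 CPM in DMSO+FGF2. With BGJ398 alone it measured 5.10, 3.68 and 4.85 CPM, and in BGJ398+FGF2 4.43, 3.93 and 4.17 CPM. The DMSO+FGF2 libraries were highest, the DMSO libraries intermediate and the 6 libraries with BGJ398 lowest, with no overlap between these 3 tiers. FGF2 raised Fosl1 by 1.80-fold in DMSO (log2 fold change 0.85 ± 0.13, adjusted p = 0.000701) and gave −0.12 ± 0.15 under BGJ398 (adjusted p = 1). The difference between these changes was −0.97 ± 0.20 (adjusted p = 0.0131). BGJ398 lowered Fosl1 by 2.96-fold with FGF2 (−1.57 ± 0.14, adjusted p = 5.97e-06), and without FGF2 the value was −0.59 ± 0.14 (adjusted p = 0.122), which passed without the 3 libraries that deviated together (adjusted p = 0.0256).

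The level of Fosl1 is uncertain, since 54.5% of its 31-base sequences also lie in Ccdc85b, a gene on the opposite strand whose exons overlap it, and the use of strand is not given in the sources used here. Ccdc85b averaged 58.9 CPM and itself changed by 0.50 ± 0.12 with FGF2 in DMSO (adjusted p = 0.0140) and by −0.56 ± 0.12 with BGJ398 given with FGF2 (adjusted p = 0.00501). Reads assigned to the coding transcript of Fosl1 made up 95.6% of those of the gene, so they do not separate Fosl1 from Ccdc85b. In CPM without TMM factors they gave 6.38 ± 0.941 (SD, n = 3) in DMSO and between 10.6 and 13.4 in DMSO+FGF2. They gave 4.36 ± 0.694 with BGJ398 alone and 3.94 ± 0.509 in BGJ398+FGF2. Counts were also rebuilt from TPM with a correction for transcript length, in which a short retained-intron transcript of 496 bases weighs more. The FGF2 change of Fosl1 in DMSO was then 0.48 (adjusted p = 0.241) and the difference between the FGF2 changes was −0.495 (adjusted p = 0.58). Fosl1 did not have the largest changes there. With FGF2 in DMSO Jun gave 0.564 and Etv1, uncalled, 0.717. With BGJ398 given with FGF2 Etv4 gave −1.479 against −1.258 for Fosl1.

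Jun (ENSMUSG00000052684, chromosome 4), the founding Jun protein of AP-1, was higher with FGF2. It measured 63.3, 63.8 and 60.3 CPM in DMSO and 92.1, 89.8 and 96.1 CPM in DMSO+FGF2. Under BGJ398 it measured 83.6, 71.8 and 69.5 CPM, and in BGJ398+FGF2 70.3, 69.7 and 79.0 CPM. The DMSO+FGF2 libraries were the highest, both BGJ398 groups lay between them and DMSO, and the BGJ398 groups overlapped each other. FGF2 raised Jun by 1.48-fold in DMSO (log2 fold change 0.57 ± 0.07, adjusted p = 0.000163), and its change under BGJ398 was −0.04 ± 0.07 (adjusted p = 1). The difference between these was −0.61 ± 0.10 (adjusted p = 0.00407), and Jun passed that test without each of the 12 libraries in turn. BGJ398 lowered Jun with FGF2 (−0.34 ± 0.07, adjusted p = 0.00462), while the value without FGF2 was 0.26 ± 0.07 (adjusted p = 0.231), with all 3 BGJ398 libraries above all 3 DMSO libraries.

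Junb (ENSMUSG00000052837, chromosome 8), a Jun protein that can restrain or replace Jun in AP-1, followed with 102, 103 and 87.6 CPM in DMSO and 132, 154 and 131 CPM in DMSO+FGF2. The BGJ398 libraries held 124, 100.02 and 98.2 CPM, and in BGJ398+FGF2 101, 120.1 and 108 CPM. The DMSO+FGF2 libraries were again highest, and the other 3 groups overlapped. FGF2 raised Junb by 1.42-fold in DMSO (log2 fold change 0.51 ± 0.10, adjusted p = 0.00427), and BGJ398 lowered it with FGF2 (−0.34 ± 0.10, adjusted p = 0.0269). The second call was lost without replicate 2 of DMSO+FGF2 or replicate 1 or 3 of BGJ398+FGF2 (adjusted p = 0.0681 to 0.12). The difference between the FGF2 changes was −0.48 ± 0.14 (adjusted p = 0.083), which passed without BGJ398+FGF2 replicate 2 (adjusted p = 0.0284). Junb shares 6.51% of its 31-base sequences with Prdx2 on the opposite strand, which averaged 239 CPM and had a log2 fold change of 0.15 ± 0.09 with FGF2 in DMSO (adjusted p = 0.321).

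Fosl2 (ENSMUSG00000029135, chromosome 5), which encodes the Fos-related protein FRA2, measured 132, 120.5 and 121 CPM in DMSO and 157, 163 and 158 CPM in DMSO+FGF2. In BGJ398 it measured 139, 141 and 137 CPM, and in BGJ398+FGF2 137, 120.3 and 152 CPM. The DMSO+FGF2 libraries were the highest of the 12, and the BGJ398+FGF2 libraries spread over the whole range of DMSO and BGJ398. FGF2 raised Fosl2 by 1.28-fold in DMSO (log2 fold change 0.35 ± 0.07, adjusted p = 0.00467). The value for BGJ398 with FGF2 was −0.22 ± 0.07 (adjusted p = 0.0376), but this call was lost without any 1 of 9 of the 12 libraries (adjusted p = 0.0504 to 0.109). These 9 were DMSO replicates 2 and 3, BGJ398 replicates 2 and 3, the 3 of DMSO+FGF2 and BGJ398+FGF2 replicates 1 and 2. The difference between the FGF2 changes was −0.38 ± 0.10 (adjusted p = 0.0504), just outside the threshold, and passed without BGJ398+FGF2 replicate 2 or 3 (adjusted p = 0.00966 to 0.0291).

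Since Jun, Junb and Fosl2 were higher together with FGF2, the 250 bases before the start site of each are shown from RefSeq (build GRCm38.p6), read 5′ to 3′ on the strand of the gene. Capitals in Jun mark TTACCTCA, whose first base is at −164 from the start site, and TGACATCA, at −45. Both are variants of the AP-1 element, known from the human JUN promoter as sites through which JUN and ATF proteins act on JUN itself. Capitals in Junb mark a PEA3 element, AGGAAG read on the other strand, at −117, and the Fosl2 window has no capitals. The windows are chr4:95052223-95052472 (minus strand) for Jun, chr8:84978749-84978998 (minus strand) for Junb and chr5:32136222-32136471 (plus strand) for Fosl2.
Jun: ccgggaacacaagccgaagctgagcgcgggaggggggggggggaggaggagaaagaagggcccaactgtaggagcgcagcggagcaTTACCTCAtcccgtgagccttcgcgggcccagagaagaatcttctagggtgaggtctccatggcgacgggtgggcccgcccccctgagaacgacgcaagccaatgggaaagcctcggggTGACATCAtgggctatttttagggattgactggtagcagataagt
Junb: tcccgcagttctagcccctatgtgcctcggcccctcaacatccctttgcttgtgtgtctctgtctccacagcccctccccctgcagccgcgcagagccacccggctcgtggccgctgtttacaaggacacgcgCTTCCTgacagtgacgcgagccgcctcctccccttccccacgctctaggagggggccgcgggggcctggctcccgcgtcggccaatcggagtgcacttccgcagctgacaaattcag
Fosl2: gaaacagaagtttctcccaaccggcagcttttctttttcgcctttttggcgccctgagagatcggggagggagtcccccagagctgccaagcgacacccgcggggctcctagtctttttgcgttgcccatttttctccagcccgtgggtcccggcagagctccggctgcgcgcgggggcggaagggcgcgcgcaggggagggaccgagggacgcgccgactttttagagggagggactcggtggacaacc

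The search covered 250 bases before to 50 after the start for 7 RefSeq promoters of Etv1, Etv5, Fosl2, Jun and Junb, on both strands, and those of Etv4, Egr1, Fosl1, Myc and Ccnd1 were not used here. Over 32851 mouse promoters of the same length, TTACCTCA occurred in 0.889%, TGACATCA in 3.62% and AGGAAG in 35.4%. Besides Junb, AGGAAG occurred in 1 of 2 promoters of Etv1, at −8 and −4 with the matches overlapping each other, and in 1 of 2 promoters of Etv5, at 2 bases past the start. The consensus AP-1 element TGANTCA, present in 7.81% of promoters, the E-box CACGTG, in 7.15%, and the serum response element, in 1.63%, had no match in these 7 windows, which says only that those letters are not there. No match of one motif overlapped a match of another.

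Myc (ENSMUSG00000022346, chromosome 15), which encodes a bHLH factor that drives growth and ribosome production, was lower with FGF2. It measured 109, 104 and 97.4 CPM in DMSO and 79.1, 78.3 and 78.4 CPM in DMSO+FGF2. In BGJ398 it measured 116, 118 and 120 CPM, and in BGJ398+FGF2 107, 114 and 115 CPM. The DMSO+FGF2 libraries were the lowest, the DMSO libraries lay below those of BGJ398, and the BGJ398+FGF2 libraries lay below those of BGJ398 as well. FGF2 lowered Myc by 1.31-fold in DMSO (log2 fold change −0.39 ± 0.05, adjusted p = 0.000218), and BGJ398 raised it by 1.42-fold with FGF2 (0.51 ± 0.05, adjusted p = 2.01e-05). The value for BGJ398 without FGF2 was 0.19 ± 0.05 (adjusted p = 0.204), which passed without the 3 libraries that deviated together (adjusted p = 0.0256). FGF2 under BGJ398 gave −0.08 ± 0.05 (adjusted p = 1), with libraries that did not overlap, as was the case for 6.31% of all tested genes. The difference between the FGF2 changes was 0.31 ± 0.07 (adjusted p = 0.027). It was lost without any 1 of 9 libraries (adjusted p = 0.0509 to 0.0792), namely DMSO replicates 1 and 2, the 3 of BGJ398, the 3 of DMSO+FGF2 and BGJ398+FGF2 replicate 3.

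Ccnd1 (ENSMUSG00000070348, chromosome 7), which encodes the cyclin that with CDK4 and CDK6 starts the cell cycle, was also lower with FGF2. It measured 60.5, 64.3 and 65.1 CPM in DMSO and 43.7, 49.7 and 42.0 CPM in DMSO+FGF2. In BGJ398 it measured 54.9, 50.6 and 59.4 CPM, and in BGJ398+FGF2 54.8, 55.0 and 53.0 CPM. The DMSO libraries were highest, the DMSO+FGF2 libraries lowest, and the libraries with BGJ398 lay between without overlapping either. FGF2 lowered Ccnd1 by 1.40-fold in DMSO (log2 fold change −0.49 ± 0.07, adjusted p = 0.000594). BGJ398 raised it with FGF2 (0.27 ± 0.08, adjusted p = 0.0212), whereas without FGF2 the value had the other sign, −0.20 ± 0.07 (adjusted p = 0.42). The difference between the FGF2 changes was 0.47 ± 0.105 (adjusted p = 0.0216). The call for BGJ398 with FGF2 was lost without DMSO+FGF2 replicate 1 or 3 or BGJ398+FGF2 replicate 1 (adjusted p = 0.0638 to 0.0904). That for the difference was lost without any 1 of 6 libraries (adjusted p = 0.0547 to 0.0693), namely DMSO replicate 2 or 3, BGJ398 replicate 2, DMSO+FGF2 replicate 1 or 3 and BGJ398+FGF2 replicate 1. Ccnd1 shares 22.3% of its 31-base sequences with LTO1 on the opposite strand, which averaged 22.2 CPM and gave 0.13 ± 0.08 with FGF2 in DMSO (adjusted p = 0.384).

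**Figure D2:**
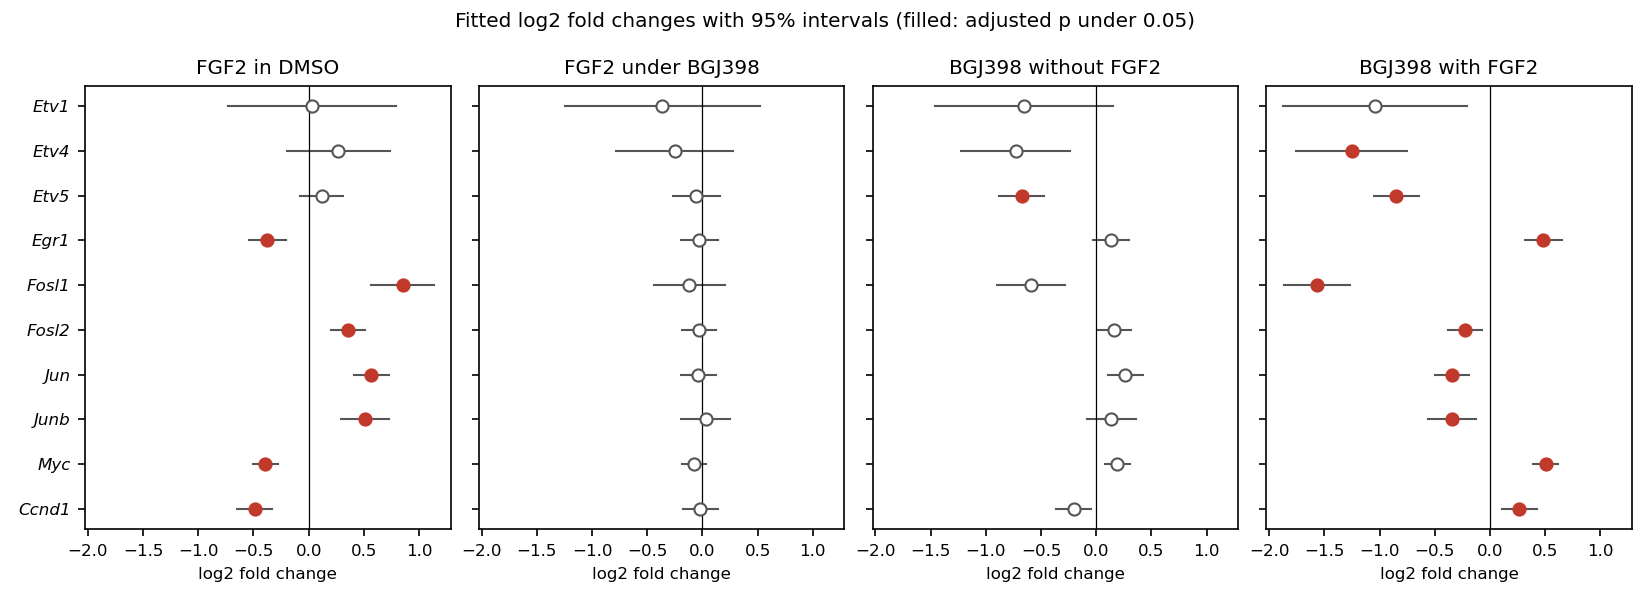
Fitted log2 fold changes of the 10 genes with 95% intervals in 4 comparisons, with filled points for an adjusted p under 0.05. FGF2 in DMSO moved 4 AP-1 genes to the right and Egr1, Myc and Ccnd1 to the left, and FGF2 under BGJ398 left all 10 points open, between −0.36 and 0.03. The panels FGF2 in DMSO and BGJ398 with FGF2 share the DMSO+FGF2 libraries.

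Set side by side, the 10 genes fell into different patterns over the 4 groups. For Etv5 and Etv4 the split was between libraries with and without BGJ398. For Egr1, Jun, Junb, Fosl2, Myc and Ccnd1 the DMSO+FGF2 libraries stood at one end of the range, and for Fosl1 both splits were seen. The libraries of the 2 groups did not overlap for 7 of the 10 genes with FGF2 in DMSO, 1 with FGF2 under BGJ398, 9 with BGJ398 without FGF2 and 10 with BGJ398 with FGF2, against 37.6%, 6.31%, 17.2% and 34.8% of all tested genes. For BGJ398 without FGF2, 8 of the 9 genes whose libraries did not overlap missed the threshold. With FGF2 under BGJ398 the lowest unadjusted p among the 10 was 0.159, that of Myc, where 325 of all genes (2.59%) had an unadjusted p under 0.05. The DESeq2 test called 5 genes there and limma 0, none of them among the 10. The 95% interval of the FGF2 change under BGJ398 was −0.20 to 0.12 for Jun and −0.44 to 0.20 for Fosl1 on the log2 scale, and neither holds the change seen in DMSO. For Etv1 and Etv4 the intervals were wide, at −1.24 to 0.52 and −0.78 to 0.28.

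Upstream of these factors, 20 genes of the Ras-ERK cascade were tested, and 5 rose and 1 fell with FGF2 in DMSO (median log2 fold change 0.06 against −0.004 over all genes). Of all tested genes 13.4% passed in that comparison, 22.2% with BGJ398 given with FGF2 and 0.327% with BGJ398 without FGF2. For the difference between the FGF2 changes, 4.24% passed. The counts of this and the following lists stand beside those shares, with nothing particular to a list read from them. The MAP kinase gene Mapk3, which encodes ERK1, rose by 0.36 ± 0.06 (adjusted p = 0.0021), its kinase Map2k1 by 0.33 ± 0.06, the adaptor Shc1 by 0.22 ± 0.04 and the scaffold Ksr1 by 0.47 ± 0.10. With BGJ398 given with FGF2, 6 of these 20 fell and 2 rose, and the FGF2 change differed between DMSO and BGJ398 for 2 of them, Shc1 and Ksr1.

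The ERK feedback inhibitors, the Dusp phosphatases and the Sprouty and Spred proteins that damp ERK, are also known as ERK outputs. Of 10 tested, 1 rose with FGF2 in DMSO, Dusp4, a nuclear phosphatase of ERK, by 1.09 ± 0.15 (adjusted p = 0.000232), with a list median of 0.21. With BGJ398 given with FGF2 all but 1 of the 10 fell (median −0.55 against 0.005 over all genes). Dusp4 fell by 1.65 ± 0.15 on the log2 scale, Spred2 by 0.57 ± 0.08, Dusp6, a cytoplasmic phosphatase of ERK, by 0.80 ± 0.13 and Spry1 by 0.40 ± 0.07. BGJ398 without FGF2 lowered 2 of them, where 0.175% of all tested genes passed as lower. These were Spred1 by 0.35 ± 0.06 and Spred2 by 0.44 ± 0.08 (adjusted p = 0.0393 for each), beside Etv5 among the 10 genes described here.

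Among relatives of the 10 genes, 1 of 13 other ETS factors rose with FGF2 in DMSO, a share near the 7.57% of all tested genes that rose: Elk3, a partner of serum response factor, by 0.19 ± 0.05 (adjusted p = 0.0192), and it fell by 0.26 ± 0.05 with BGJ398 given with FGF2. Ets2 rose by 0.28 ± 0.05 with BGJ398 without FGF2 (adjusted p = 0.0436). Of 11 other AP-1 and related bZIP genes, 5 rose with FGF2 in DMSO and 0 fell, while the list median was −0.003. Jund, the third Jun protein, rose by 0.57 ± 0.11 (adjusted p = 0.00471), and the small Maf genes Mafg and Mafk rose by 0.24 ± 0.06 and 0.36 ± 0.09. Atf3, a stress-induced repressor, rose by 0.57 ± 0.15. BGJ398 given with FGF2 lowered 4 of the 11 and raised 1. Mafg fell by 0.45 ± 0.06 and Mafk by 0.47 ± 0.09, and Fos, the founding Fos gene, rose by 0.44 ± 0.10 (adjusted p = 0.00709). With FGF2 in DMSO Fos gave −0.14 ± 0.10 (adjusted p = 0.424), from a mean of 9.74 CPM in DMSO to 8.82 CPM in DMSO+FGF2. All 3 Jun genes and both Fos-related genes were thus higher with FGF2, whereas Fos and Fosb, which gave −0.47 ± 0.26 (adjusted p = 0.28), did not pass.

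Other immediate-early genes moved both ways, as Egr1 and the AP-1 genes did. Of 19 tested, 6 rose and 4 fell with FGF2 in DMSO. The rising genes included Klf4, a zinc finger factor, by 0.68 ± 0.07 (adjusted p = 2.24e-05), the survival gene Ier3 by 0.66 ± 0.09 and the phosphatase gene Dusp1 by 0.63 ± 0.09. The orphan nuclear receptor gene Nr4a1 fell by 0.80 ± 0.11 (adjusted p = 0.000289). Egr2 and Egr3, the close relatives of Egr1, fell by 0.72 ± 0.12 and 0.78 ± 0.12, from 19.1 to 11.6 CPM and from 20.5 to 11.9 CPM. BGJ398 given with FGF2 raised 5 and lowered 5, with Egr2 at 0.99 ± 0.12 and Nr4a1 at 0.95 ± 0.11 against Klf4 at −0.70 ± 0.07 and Dusp1 at −0.80 ± 0.09. The FGF2 change differed between DMSO and BGJ398 for 6 of the 19, where 4.24% of all tested genes passed. Egr2, Nr4a1 and Klf2 were on the positive side and Klf4, Dusp1 and Ier3 on the negative side.

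**Figure D3:**
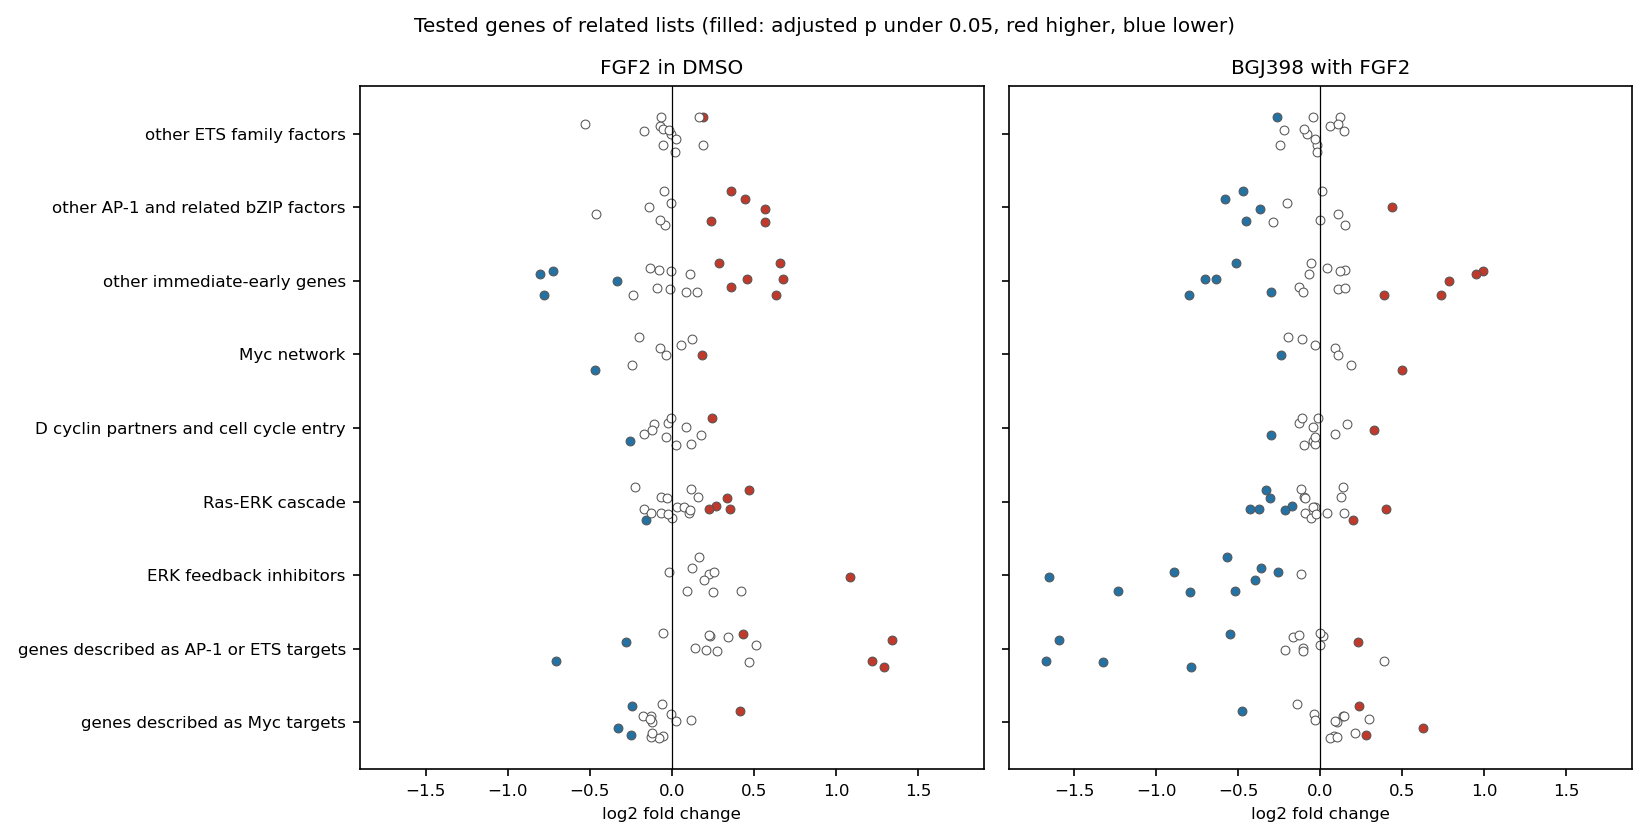
Log2 fold changes of the tested genes of 9 related lists with FGF2 in DMSO (left) and with BGJ398 given with FGF2 (right), which share the DMSO+FGF2 libraries. Filled points passed the test, red for higher and blue for lower, and vertical spread within a list only separates points. ERK feedback inhibitors lie mostly at negative values on the right, where all but 1 of 10 fell, and other immediate-early genes lie on both sides in both panels.

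Genes around Myc and cyclin D1 were read against the same 13.4%. Of 8 tested Myc network genes, 1 fell with FGF2 in DMSO, Mxd4, a MAX-binding repressor, by 0.47 ± 0.06 (adjusted p = 0.000186), and 1 rose, the repressor Mnt, by 0.19 ± 0.06. Of 12 partners of the D cyclins and genes of cell cycle entry, Ccnd2, which encodes cyclin D2, fell by 0.25 ± 0.05 (adjusted p = 0.00679) and Cdkn1a, which encodes the inhibitor p21, rose by 0.24 ± 0.07 (adjusted p = 0.0486). Ccnd2 also fell by 0.30 ± 0.05 with BGJ398 without FGF2 (adjusted p = 0.0335). With BGJ398 given with FGF2 Cdk6 rose by 0.33 ± 0.08 and the S phase factor gene E2f1 fell by 0.30 ± 0.07.

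Genes described as targets of these factors were counted as well. Of 15 tested AP-1 or ETS targets, 4 rose and 2 fell with FGF2 in DMSO (median 0.27 against −0.004 over all genes). Spp1, which encodes osteopontin, rose by 1.34 ± 0.08 (adjusted p = 3.49e-07), the chromatin protein gene Hmga2 by 1.22 ± 0.07, the growth factor gene Ereg by 1.30 ± 0.21 and Vegfa by 0.44 ± 0.07. The falling members were the protease gene Mmp9, by 0.70 ± 0.14, and the hyaluronan receptor gene Cd44, by 0.28 ± 0.05. Of the same 15, 5 fell with BGJ398 given with FGF2, Spp1 at −1.60 ± 0.09 and Hmga2 at −1.67 ± 0.07 among them, and 1 rose. Of 16 genes described as Myc targets, 3 fell and 1 rose with FGF2 in DMSO (median −0.12). Odc1, the first enzyme of polyamine synthesis, fell by 0.33 ± 0.07 (adjusted p = 0.008), the nucleolar helicase gene Ddx21 by 0.24 ± 0.06 and the RNA polymerase I subunit gene Polr1b by 0.25 ± 0.08, while the glycolytic enzyme gene Ldha rose by 0.42 ± 0.11. With BGJ398 given with FGF2 the same 4 genes passed with the other sign, Odc1 at 0.62 ± 0.07, Ddx21 at 0.24 ± 0.06, Polr1b at 0.28 ± 0.08 and Ldha at −0.48 ± 0.11. FGF2 under BGJ398 gave 0 calls over all 12542 tested genes, and so 0 in each of these 9 lists.

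For the 3 genes with the largest F statistic over the 4 group means, Fosl1, Myc and Etv5, the protein-coding genes with the most similar levels were found by Pearson's r of log2 CPM over the 12 libraries, among genes of at least 5 CPM. These libraries share their groups, so r mostly restates the group differences, and no test is given. Levels of Fosl1 were most like those of the adaptor gene Shc1 (r = 0.987), Spn (r = 0.978) and Brap (r = 0.9752). Levels of Myc were most like those of the matrix glycoprotein gene Tnc (r = 0.978), the activin antagonist gene Fst (r = 0.977) and the osteoblast factor gene Sp7 (r = 0.973). For Etv5 the highest values were those of Sh3bp1 (r = 0.961), Plekha6 (r = 0.948) and the phosphatase gene Ptpn9 (r = 0.940). Sp7, known as osterix, fell by 1.24 ± 0.10 on the log2 scale with FGF2 in DMSO (adjusted p = 4.06e-06), beside the fall of Myc. Within the 10 genes, r was 0.927 between Etv4 and Etv5, 0.940 between Egr1 and Myc, −0.922 between Fosl1 and Myc and −0.907 between Jun and Ccnd1.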

How the data were processed

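Polyadenylated RNA of Ocy454 cells was sequenced in 12 libraries, with groups and replicate numbers read from the titles of the samples. Per the submitters' processing notes, the authors quantified reads per transcript with Salmon (version not given) on build GRCm39. The sources used here do not give strand, trimming or bias options. The deposited tables hold, per the file headers, expected counts (estimated reads, not scaled) and TPM, scaled for length and library before deposit, for 116178 transcripts. Effective lengths in bases were also deposited, per the file headers. Expected counts were summed per gene through GENCODE M21 identifiers (114656 transcripts matched, 0.499% to 0.641% of reads did not) and rounded. Because that annotation is of another build, gene coordinates are given only for the 3 RefSeq promoter windows, on GRCm38.p6. Library sizes were 18951710 to 27716975 reads.

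Genes were tested with edgeR 4.0.16 under R 4.3.3, with filterByExpr, TMM scaling and the quasi-likelihood F test on 4 group means over 12 libraries, 2-sided, with Benjamini-Hochberg adjustment over 12542 genes and a threshold of 0.05. The SE is the absolute log2 fold change divided by the square root of F. The biological coefficient of variation was 8.49%. Library pairs within groups differed by 3.34 to 28.87 times the Poisson expectation, and none was treated as a duplicate. The procedure was tested on simulated counts.

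The 10 genes, the 9 related lists (133 genes) and the tests were chosen with earlier results of these data known. All 10 genes are named whatever their values, with up to 4 called genes of each list per comparison by p. Egr3, Mmp9 and Cd44 were named after their values were seen, and 1 called gene of the lists is counted but not reported here by name. Other settings were DESeq2 1.42.0, limma 3.58.1 (voom), other scalings, no filter, the compared groups alone, a replicate block, counts rebuilt from length-scaled TPM, and leaving out libraries.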

Additional observations from a re-analysis of the deposited data

Results flagged for a closer look

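For Fosl1 the FGF2 change was unequal with and without the inhibitor, and the change under BGJ398 less the one in DMSO was −0.972 on the log2 scale, which passed the test of the difference itself (edgeR interaction term, adjusted p = 0.0131). For Jun it was −0.608 (adjusted p = 0.00407), with libraries of DMSO+FGF2 above those of the other 3 groups. For Myc it was 0.315 (adjusted p = 0.027), and for Ccnd1 it was 0.47 (adjusted p = 0.0216). In all 4 genes the change in DMSO passed the test, up for Fosl1 and Jun and down for Myc and Ccnd1, and that under BGJ398 did not. With length-scaled TPM the differences were −0.495 for Fosl1 (adjusted p = 0.58), 0.278 for Myc (adjusted p = 0.12) and 0.438 for Ccnd1 (adjusted p = 0.097), and none of these passed, while Jun passed under all 20 other settings.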

How the results depend on the processing

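All 7 calls for FGF2 in DMSO kept their direction and call without each of the 12 libraries. Leave-one-out ranges of called genes were 1018 to 2256, 0 to 1, 9 to 104, 1948 to 3345 and 328 to 956 (for FGF2 in DMSO and under BGJ398, for BGJ398 without and with FGF2, and for the difference between the FGF2 changes), and of the 10 genes 7 to 7, 0 to 0, 0 to 1, 6 to 9 and 2 to 7. Over 1040 values of the 10 genes under other settings, 962 kept direction and call, 43 lost a call, 19 gained one and 16 changed sign, none of the last called. For FGF2 in DMSO 2611 genes were called without the 3 libraries that deviated together, a setting chosen after seeing the data, against 1680. FGF2 under BGJ398 gave 5 genes with DESeq2, 6 with no filter, 1 with the compared groups alone and 4 without the 3 libraries, against 0. BGJ398 without FGF2 gave 149, 83, 64 and 730 in that order, 21 with the replicate block and 12 with length-scaled TPM, against 41, and of the 10 genes 2 with DESeq2, 0 with length-scaled TPM and 3 without the 3 libraries, against 1. BGJ398 with FGF2 gave 1794 with the compared groups alone and 1812 with length-scaled TPM, against 2782. The difference gave 821 with DESeq2, 347 with length-scaled TPM and 1038 without the 3 libraries, against 532, and of the 10 genes 1 and 7 under the last pair, against 4. The cause of these shifts was not tested. Length-scaled TPM ended the calls of Fosl1 for FGF2 in DMSO, Etv5 for BGJ398 without FGF2 (adjusted p = 0.0501), and Junb, Fosl2 and Ccnd1 for BGJ398 with FGF2 (adjusted p = 0.226, 0.173 and 0.0753). The compared groups alone ended those of Fosl2 (0.113) and Ccnd1 (0.0561) for BGJ398 with FGF2.

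Signs changed for these uncalled log2 values. With FGF2 in DMSO Etv1 ranged from −0.152 to 0.15 when 1 library was left out, with −0.024 when that was DMSO replicate 3. With BGJ398 without FGF2 it gave 0.341 with length-scaled TPM. With FGF2 under BGJ398, leaving out 1 library gave ranges of −0.427 to 0.018 for Etv4, −0.107 to 0.033 for Egr1 (0.002 also among them), −0.113 to 0.053 for Fosl2, −0.099 to 0.048 for Jun, −0.075 to 0.04 for Ccnd1 and −0.043 to 0.144 for Junb (−0.021 and −0.033 among them). Without the 3 libraries Egr1 gave 0.011, Fosl1 0.009, Fosl2 0.05 and Jun 0.076.

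Deviations of samples with the same replicate number correlated at −0.392 to 0.377 over 18 pairs (median 0.001). Over the 36 other pairs the range was −0.56 to 0.448 (median 0.024). The highest of the 18 was that of DMSO+FGF2 replicate 2 with BGJ398+FGF2 replicate 2, and 3 of 12 libraries correlated best with their own number. With the replicate block 1503, 0, 21, 2565 and 428 genes were called, and 7, 0, 1, 9 and 3 of the 10, with Myc lost for the difference (adjusted p = 0.0589). Reads limited Etv1 most, with 5 in its shallowest library.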
